A study of Mus musculus with 41 samples.

Results

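Cxcl1, Cxcl2, Cxcl5 and Cxcl15, the CXC chemokines of the mouse best known for attracting neutrophils, were followed in lung and liver after inhalation of titanium dioxide nanoparticles. They were 4 of 27962 gene names on the mRNA arrays and were measured by 5 probes, found by an exact match of the gene name. The genes were picked with lung differences of these same arrays in view, so their lung differences are given below as a description without a test. Tests are given for the liver, for control lung against control liver and for the relations among the genes. Adjusted p-values from limma are also given for genes of other lists in the lung. Those lists were chosen with earlier results of these data known, so their lung p-values are a description too.

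The mice were female C57BL/6 (C57BL/6BomTac in the study's methods) that had been time-mated but had not conceived. The nanoTiO2-exposed mice inhaled surface-coated rutile nanoTiO2 (UV-titan) as whole-body exposure for 1 hr per day on 11 days, at 42.4 mg/m3 as measured (40 mg/m3 in the group labels), and the control mice inhaled filtered air. Tissue was taken 5 days after the last exposure. Lung RNA was measured in 7 exposed and 6 control mice and liver RNA in 7 exposed and 8 control mice, with 1 array per mouse and tissue. By the mouse numbers in the sample titles, 6 exposed and 6 control mice gave both tissues. Each array set the sample, in the Cy5 dye, against a commercial mouse reference RNA, in Cy3, without dye swap, and values are log2 ratios of Cy5 over Cy3. A ratio of 0 means equal signal in sample and reference. Because the reference holds a different amount of each transcript, ratios are compared between groups for 1 probe and never between genes. The arrays lay on 4 slides per tissue, the exposed mice always at positions 1 and 2 and the controls at positions 3 and 4, so that array position and exposure cannot be told apart. Slide 4 of the lung held no control mouse.

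Chemokines of this family carry a glutamate-leucine-arginine (ELR) motif ahead of the CXC cysteines and act mainly through the receptor Cxcr2, which draws neutrophils out of blood toward a gradient of ligand. Cxcl1 (KC) and Cxcl2 (MIP-2) are inducible in macrophages, epithelium, endothelium and, for Cxcl1, hepatocytes, and their promoters respond to NF-kB. Cxcl5 (LIX) is made in the lung mainly by alveolar epithelium. Cxcl15 (lungkine) is an epithelial chemokine largely restricted to lung. The transcripts are measured here in whole tissue, where fewer cells of a type and less RNA per cell cannot be told apart.

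In the array's own coordinates (mm7), all 5 probes lie on chromosome 5. The Cxcl5 probe A_52_P295432 is at chr5:90732453-90732512, the Cxcl1 probe A_51_P363187 at chr5:90882059-90882118 and the Cxcl2 probe A_51_P217463 at chr5:90894748-90894807. Cxcl15 has a probe at chr5:90774196-90774255 (A_52_P820196, the brighter, used for the gene below) and another whose 60 bases are spread over 2674 bases of genome, chr5:90766592-90769265 (A_51_P384187), so that it crosses at least 1 intron. In RefSeq the genes stand in the order Cxcl5, Ppbp, Pf4, Cxcl3, Cxcl15, Cxcl1, Cxcl2. The junction-crossing Cxcl15 probe is shown because it is the reading of Cxcl15 that stayed at background on every liver array.

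Cxcl15 probe A_51_P384187: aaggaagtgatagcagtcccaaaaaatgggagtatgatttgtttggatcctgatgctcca

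Promoters were at hand for 3 of the 4 genes (RefSeq, GRCm38.p6, plus strand, the 250 bases before the start). They are shown because Cxcl1 and Cxcl2 hold the same NF-kB-type sequence while only 1 of these genes gave a signal on the arrays. The motifs searched on both strands were GGGAATTTC (NF-kB type), TATAAA and TGANTCA (AP-1 type). The matches do not overlap in these windows, and they are in capitals.

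Cxcl1, chr5:90890995-90891244: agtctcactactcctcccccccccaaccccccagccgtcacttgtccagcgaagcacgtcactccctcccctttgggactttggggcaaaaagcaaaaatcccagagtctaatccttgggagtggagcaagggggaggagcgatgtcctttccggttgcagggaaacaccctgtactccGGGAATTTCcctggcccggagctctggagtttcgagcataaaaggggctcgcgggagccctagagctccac

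Cxcl2, chr5:90903649-90903898: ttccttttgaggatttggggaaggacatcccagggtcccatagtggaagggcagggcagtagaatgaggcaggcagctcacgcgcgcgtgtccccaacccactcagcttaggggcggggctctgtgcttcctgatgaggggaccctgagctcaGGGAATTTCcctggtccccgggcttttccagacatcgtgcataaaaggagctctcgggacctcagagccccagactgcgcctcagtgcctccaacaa

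Cxcl15, chr5:90794284-90794533: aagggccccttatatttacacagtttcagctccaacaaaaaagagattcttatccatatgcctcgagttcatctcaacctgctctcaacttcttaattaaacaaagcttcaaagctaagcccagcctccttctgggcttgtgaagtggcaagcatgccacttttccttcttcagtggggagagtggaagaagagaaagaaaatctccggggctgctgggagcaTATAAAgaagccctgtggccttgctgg

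The letters GGGAATTTC begin 71 bases before the start of Cxcl1 and 97 bases before that of Cxcl2, inside a run of 14 bases that the promoters share. They were found in 0.234% of 32851 promoters of the same length. This motif was set after these promoters had been read, so its presence in them was known beforehand and nothing is read from the share. TATAAA, found in 12.4% of promoters, begins 27 bases before the start of Cxcl15. TGANTCA, in 6.75% of promoters, was in none of the 3. A match of letters is a description and does not show binding.

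In the lung, Cxcl1 and Cxcl5 were higher in every exposed mouse than in any control mouse, Cxcl15 did not separate the groups, and Cxcl2 was not well above background in any sample. Across the array 0.194% of 41155 probes were called between the lung groups (limma, adjusted p under 0.05), and the main probe of 1 of the 4 genes, Cxcl1, was among them (0.173% of probes were called higher and 0.0219% lower). Cxcl1 was not called with the background model fitted on all spots or with centring on the array median in place of loess. Groups without overlap were found for 2 of the 4 genes and for 0.588% of all probes (0.36% higher and 0.228% lower). These shares describe genes that were chosen from this contrast, and nothing is read from them.

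The log2 ratio of Cxcl1 ran from -3.28 to -2.69 with a median of -2.99 in the 7 exposed lungs, and from -4.12 to -3.94 with a median of -4.05 in 4 control lungs. In the other 2 control lungs, of mice 27 and 29, the scanner software had marked the spot's background and the values were left out. With them kept, at -3.70 and -3.63, the controls still lay below every exposed lung. The means were -2.99 ± 0.23 (SD, n = 7) and -4.04 ± 0.09 (SD, n = 4), a difference of 1.05 or 2.06-fold, and the difference was 0.92 with all 6 controls. The fold depends on the processing. The log2 difference was 0.83 in the authors' processed values, which hold all 6 controls. It was 1.63 with a smaller offset (10) in the background correction and 2.36 on the scanner software's processed signals. The Cy5 signal above local background was 78.5 to 128 units in exposed and 14 to 46 units in control lungs, while the Cy3 signal of the reference was similar (log2 means 10.12 and 10.21). Within slides 1, 2 and 3, which held mice of both groups, the differences with all spots kept were 1.13, 0.92 and 0.94.

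Cxcl5 had the largest difference of the 4 genes and the widest spread. Its log2 ratio was -2.52 at the lowest, -0.97 at the median and 1.01 at the highest in exposed lungs, and -3.67, -2.93 and -2.85 in control lungs. The lowest exposed value, of mouse 23, lay above the highest control value, of -2.85, and the range within the exposed group exceeded the difference of the means. Those means were -0.87 ± 1.31 (SD, n = 7) and -3.11 ± 0.34 (SD, n = 6), a difference of 2.24. The spot was well above background in Cy5 on 7 of 7 exposed but only 2 of 6 control arrays, those of mice 26 and 32, so the 4.72-fold difference depends on how background is handled, and with a smaller offset in the background correction the log2 difference was 3.31. Above local background the Cy5 signal was 75 to 909.5 units in exposed lungs, with a median of 309, and 7 to 23 units in control lungs.

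The spread of Cxcl5 within the exposed lungs followed the slides. The 3 exposed arrays of slides 1 and 2 had log2 ratios of -0.24 to 1.01 and the 4 of slides 3 and 4 of -2.52 to -0.97, and on each of the 3 slides with both positions filled the array at position 1 was higher than that at position 2, by 0.77, 1.29 and 1.40. Cxcl1 showed no such order between positions, with differences of -0.30, -0.08 and 0.37. Within slides, the exposed mean of Cxcl5 exceeded the control mean by 1.86 to 3.56 on the 3 slides with both groups. Whether slide, position or the mice themselves set these levels was not tested.

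**Figure D1:**
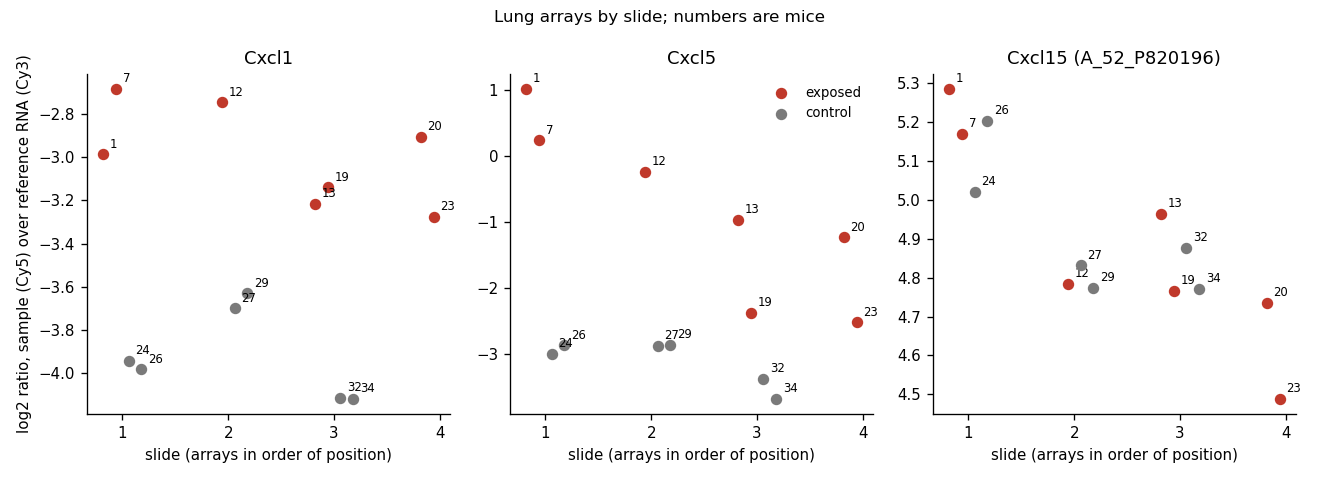
Log2 ratios of Cxcl1, Cxcl5 and Cxcl15 on the 13 lung arrays, placed by slide (x axis) and position, with mouse numbers; red points are exposed and grey points control mice, and spots marked for their background are included. For Cxcl1 and Cxcl5 every exposed array lies above every control array, whereas for Cxcl15 the exposed and control arrays overlap. The exposed arrays of Cxcl5 lie at -0.24 to 1.01 on slides 1 and 2 and at -2.52 to -0.97 on slides 3 and 4.

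Cxcl15 was bright on every lung array, and its groups differed by less than their spread. On the main probe the log2 ratio was 4.49 to 5.28 in exposed lungs, median 4.78, and 4.77 to 5.20 in control lungs, median 4.85. The difference of the means was -0.03, and on the junction-crossing probe it was -0.06, each smaller than the SD of 0.27 among exposed lungs. On the main probe the Cy5 signal alone differed by -0.18 and the Cy3 signal of the reference by -0.15 (log2). The Cy3 signal of that probe also differed between the tissues, as given below. The ranges of the groups overlapped on either probe.

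Cxcl2 gave no usable level. Its Cy5 signal was 1 to 15.5 units and its Cy3 signal 10.5 to 20.5 units above local background over all 28 arrays, and neither channel was well above background on any of them. No fold and no direction are therefore given for Cxcl2 in either tissue.

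**Figure D2:**
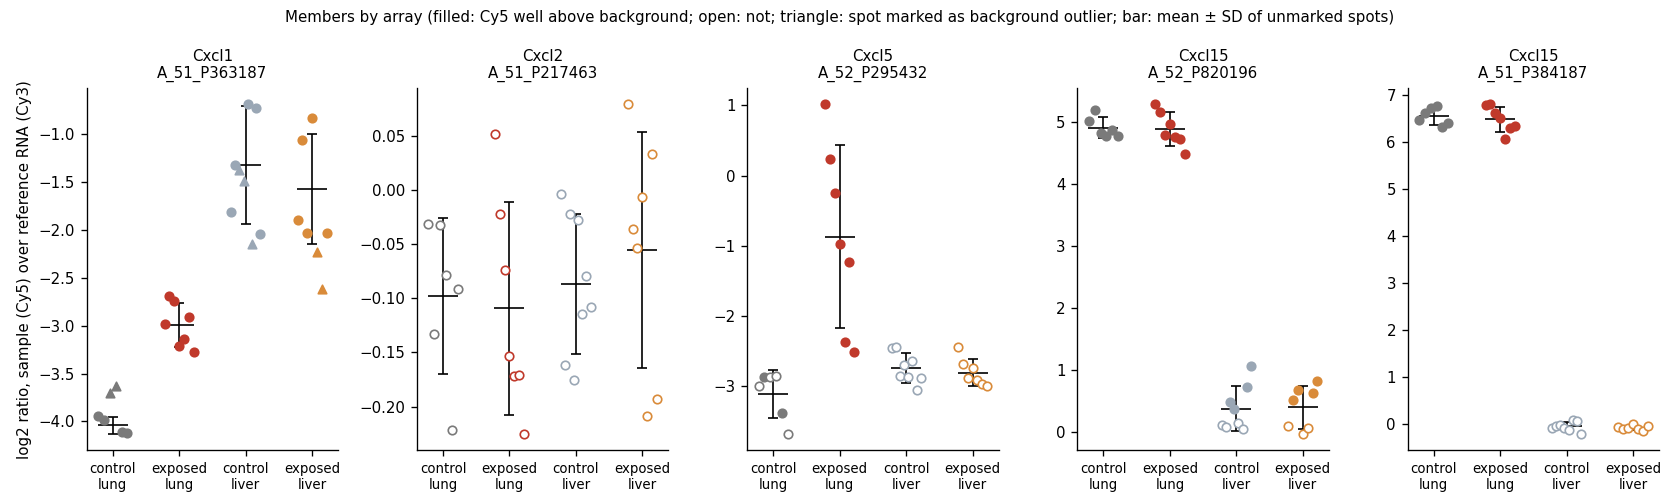
Log2 ratio (y axis, scale set for each probe) of the 5 probes on all 28 arrays by group. Filled points are well above background in Cy5, open points are not, triangles mark spots left out for their background, and bars are mean ± SD of the spots kept; Cxcl1 and Cxcl5 of exposed lung stand above control lung, Cxcl2 is open on all 28 arrays, and Cxcl15 separates the tissues.

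Among the exposed lungs, the log2 ratios of Cxcl5 and Cxcl15 ran together, and so did those of the Cxcl2 spot, which was at background. Over the 7 arrays Pearson's r was 0.87 (exact permutation p = 0.0123, adjusted p = 0.0369) and Spearman's rho 0.93 (exact permutation p = 0.00675, adjusted p = 0.0202), two-sided, with adjustment over 9 relations. Without the 2 arrays farthest from the median of Cxcl5, r was 0.65, and without background correction the adjusted p of r was 0.0679 at r = 0.86. Cxcl1 and Cxcl5 had r = 0.66 (exact permutation p = 0.114, adjusted p = 0.25) and Cxcl1 and Cxcl15 r = 0.43 (exact permutation p = 0.332, adjusted p = 0.50). In the 6 control lungs r between Cxcl5 and Cxcl15 was 0.41 (exact permutation p = 0.436, adjusted p = 0.50). Cxcl2, which never left background, had r = 0.95 with Cxcl5 over the same 7 exposed arrays (exact permutation p = 0.000198, adjusted p = 0.00179). With Cxcl15 it had r = 0.90 (exact permutation p = 0.00516, adjusted p = 0.0232). Without background correction Cxcl2 had r = 0.88 with Cxcl5 and 0.84 with Cxcl15 (adjusted exact permutation p = 0.0679 and 0.0708). The relation of Cxcl5 and Cxcl15 was thus not particular to genes with a signal. These p-values take no account of the slides. Within slides at most 2 exposed arrays can be set against each other: on slides 1, 3 and 4 the array at position 1 exceeded that at position 2 for Cxcl5 (by 0.77, 1.40 and 1.29) and also for the main probe of Cxcl15 (by 0.12, 0.20 and 0.25), whereas the junction-crossing probe differed by -0.01, 0.43 and -0.05. A relation over 3 such differences was not tested.

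By the same measure, the genes whose log2 ratios ran most closely with Cxcl1 over the 7 exposed lungs were Elk3, Gsk3a and Tnpo2 (r = 0.974, 0.972 and 0.972). For Cxcl5 they were Lonrf3, Ets1 and Pvrl1 (r = 0.993, 0.990 and 0.990) and for Cxcl15 2810432L12Rik, 9330133O14Rik and Ssbp2 (r = 0.987 each), out of 18275 probes above background on all 7 arrays. None of these 9 genes was called between exposed and control lungs, with differences of -0.12 to 0.02. Without background correction Elk3 stayed among the closest 3 for Cxcl1 and all of Lonrf3, Ets1 and Pvrl1 for Cxcl5, while for Cxcl15 the 3 genes were different ones. Of the 18275 probes, 55 exceeded r = 0.9 with Cxcl1, 205 with Cxcl5 and 220 with Cxcl15. These correlations take no account of the slides. How many probes would exceed 0.9 by chance over 7 arrays was not worked out, so nothing is read from the counts or the names.

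None of the other CXC ligands was called between the lung groups. Of the 2 other ELR ligands, 0 were called: Cxcl3, listed as Gm1960 and next to Cxcl15 in the cluster, averaged 0.22 ± 0.28 over the 7 exposed lungs and -0.12 ± 0.04 over the 6 control lungs (SD; difference 0.35, adjusted p = 0.436 from limma) and was above background on 5 of 7 exposed and 2 of 6 control arrays. Ppbp, the platelet basic protein gene listed as Cxcl7, had 3.04 ± 0.25 (SD, n = 7) and 3.60 ± 0.39 (SD, n = 6), a difference of -0.56 (adjusted p = 0.329 from limma). On the scanner software's processed signals 1 of these 2 ELR ligands was called lower. The 8 CXC ligands without the ELR motif had 0 calls, with a median difference of 0.14 beside 0.00 over all probes. Among them Cxcl9 had the largest difference, 0.65 (adjusted p = 0.537 from limma).

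The receptors had 0 calls of 3 in the lung. Cxcr2, listed as Il8rb, the signalling receptor on neutrophils, averaged 0.55 ± 0.21 over the 7 exposed and 0.84 ± 0.39 over the 6 control lungs (SD), a difference of -0.30 (adjusted p = 0.718 from limma). Cxcr1, listed as Il8ra, was above background on no lung array. Ackr1, listed as Darc, which binds these chemokines on red cells and endothelium without signalling, differed by 0.16 (adjusted p = 0.785 from limma).

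Of 24 inducers and regulators of these chemokines, 2 were called higher in exposed lungs and 0 lower, beside 0.173% of all probes called higher. The list was chosen with earlier results of these data known, so its lung p-values are a description. Csf2, the gene of the growth factor GM-CSF, rose from 1.45 ± 0.21 (SD, n = 6) to 2.36 ± 0.17 (SD, n = 7), a difference of 0.91 (adjusted p = 0.000326 from limma). Tnfaip3, an inhibitor of NF-kB signalling that NF-kB itself induces, rose from -0.18 ± 0.11 (SD, n = 6) to 0.22 ± 0.16 (SD, n = 7), a difference of 0.39 (adjusted p = 0.0364 from limma), and it was called in 2 of 7 other processings against 5 of 7 for Csf2. Relb and Nfkbiz, members of the NF-kB system, had differences of 0.44 and 0.39 that did not pass (adjusted p = 0.305 and 0.107). Il1b and Tnf, cytokines that induce Cxcl1, differed by -0.30 and 0.26 (adjusted p = 0.832 and 0.329). Il17a, Il17b, Il17c, Il17f and Csf3 were above background on no lung array.

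**Figure D3:**
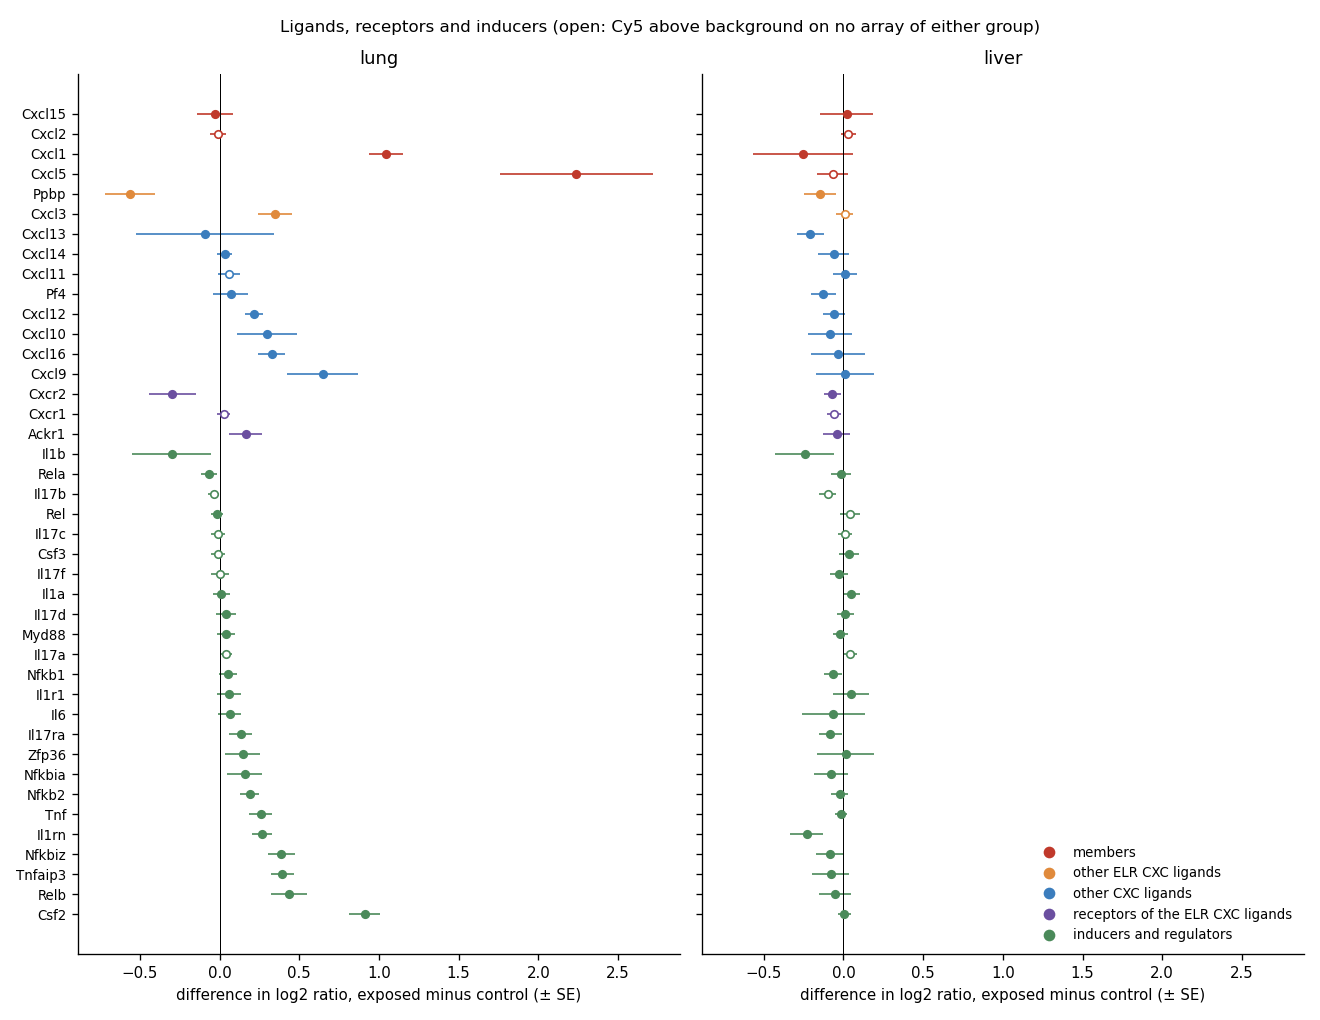
Difference in log2 ratio (x axis, exposed minus control, ± SE) for the 4 chemokines, the other CXC ligands, the receptors and the inducers, in lung (left) and liver (right) on the same scale; open points were above background on no array. In the lung Cxcl5 (2.24), Cxcl1 (1.05) and Csf2 (0.91) lie farthest to the right, and in the liver no point lies beyond -0.25.

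Markers of other cells were read beside these differences, again as a description, since the lists were chosen with earlier results of these data known. Of 17 neutrophil markers 0 were called in the lung, 5 were higher and 12 lower, with a median difference of -0.09, and their summed Cy5 level (13 genes, log2) was 10.7 to 11.4 in exposed and 11.0 to 12.0 in control lungs. Elane and Prtn3, granule proteases of immature neutrophils, were above background on no lung array. Of 9 alveolar macrophage markers, Marco was called higher (0.57, adjusted p = 0.00937 from limma) and Siglecf lower (-0.70, adjusted p = 0.0105 from limma), and their summed level (7 genes) was 13.40 to 14.04 in exposed and 12.67 to 13.41 in control lungs. With the background model on all spots, on processed signals or with median centring 0 of the 9 were called. With offset 10, 1 was called higher and 0 lower. Without background correction, in the authors' processed values and with background-marked spots kept, 1 was called higher and 1 lower. All 7 red cell and platelet markers had lower means in exposed lungs, with a median difference of -0.16 and 0 called. None of 14 epithelial markers was called, with a median of -0.04, and their summed level was 15.3 to 15.6 in exposed and 15.4 to 15.6 in control lungs (8 genes).

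Hepatocyte markers were higher in exposed lungs for 8 of 8 genes with 0 called, at a median difference of 0.84, and their summed level was 9.70 to 13.97 in exposed and 9.15 to 10.74 in control lungs (6 genes). For 6 of the 8 genes the exposed lungs of mice 1, 13 and 19 lay above all other lungs, as for Alb at 3.38 to 4.02 against 1.53 to 2.75 in the other 4 exposed and 0.84 to 2.70 in the control lungs. Cyp2e1 and Ttr did not follow, Cyp2e1 being at 2.43 to 3.52 in these 3 mice and at up to 3.73 in the other exposed lungs. Without these 3 mice, an alternative added after the values were seen, Cxcl1 differed by 1.14 and Cxcl5 by 2.17. The part of the hepatocyte transcripts in the lung differences was not tested.

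In the liver none of these genes was called between exposed and control mice. No probe of 41143 was called (0%) by limma, 971 had an unadjusted p under 0.05, 0.17% had groups without overlap (0.0583% higher and 0.112% lower), and of the 4 chemokines only Cxcl1 was above background in the sample channel on all arrays, with the main probe of Cxcl15 above it on 8 of 15. The Cxcl5 spot was well above background in Cy5 on 0 of 15 liver arrays and the junction-crossing Cxcl15 probe likewise on 0 of 15.

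Cxcl1 was above background on all 15 liver arrays and varied widely from mouse to mouse in each group. The log2 ratio was -2.03 at the lowest, -1.90 at the median and -0.83 at the highest in 5 exposed livers and -2.04, -1.33 and -0.69 in 5 control livers, the spots of the other 5 livers being marked for their background. The ranges overlapped almost wholly. The means were -1.57 ± 0.58 (SD, n = 5) and -1.32 ± 0.62 (SD, n = 5), a difference of -0.25 (95% interval -0.94 to 0.44; exact permutation p = 0.524, two-sided; adjusted p = 1.00 from limma). With the marked spots kept the difference was -0.36 over 7 and 8 mice, and within slides it was -0.94 to -0.12. The highest values came from mice 32 and 37 (control) and mouse 13 (exposed), at -0.69, -0.73 and -0.83.

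The main probe of Cxcl15 was above background in Cy5 on 4 of 7 exposed and 4 of 8 control livers, and in Cy3 on 0 of 15, so that its liver ratio has a denominator at background on every array. The means were 0.39 ± 0.34 (SD, n = 7) and 0.37 ± 0.36 (SD, n = 8), a difference of 0.02 (95% interval -0.33 to 0.37; exact permutation p = 0.915, two-sided; adjusted p = 1.00 from limma). The level followed the slide and not the group: all 8 arrays of slides 2 and 4 were above background, at log2 ratios of 0.36 to 1.06, and none of the 7 arrays of slides 1 and 3, at -0.03 to 0.14. The secretoglobins Scgb1a1 and Scgb3a2, abundant products of airway club cells, were the 2 of 15 epithelial markers whose liver arrays divided the same way, with log2 Cy5 of 7.33 to 7.79 on slides 2 and 4 against 6.11 to 6.38 on slides 1 and 3 for Scgb1a1, and 6.85 to 8.19 against 6.45 to 6.74 for Scgb3a2. Their part in the Cxcl15 reading was not tested.

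**Figure D4:**
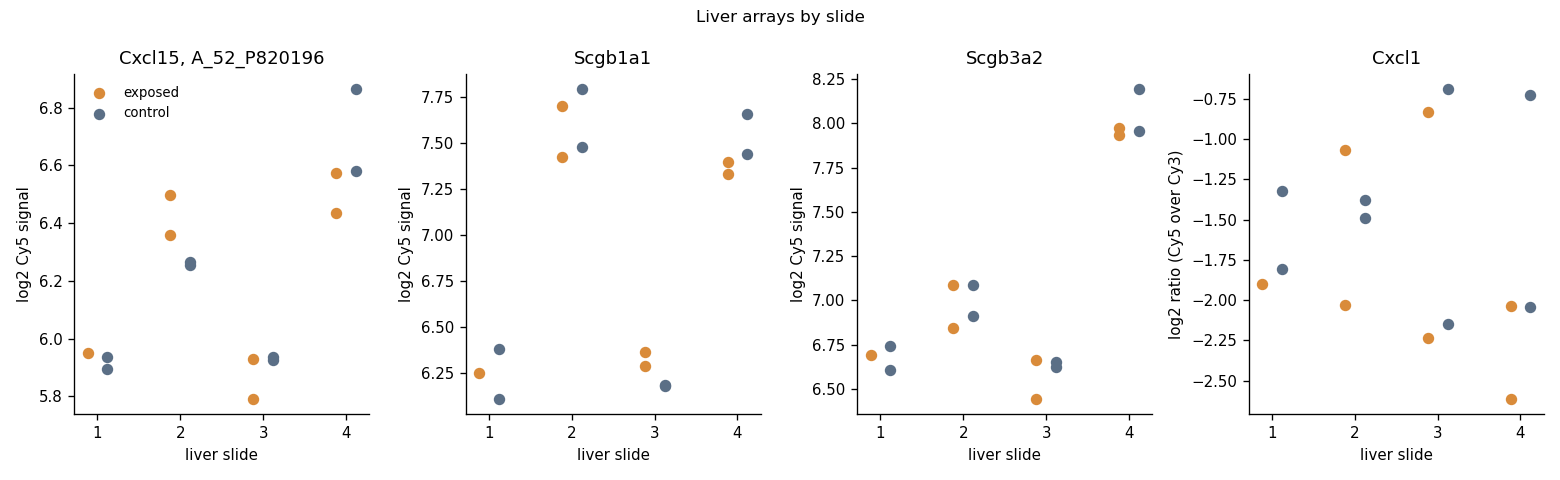
The 15 liver arrays by slide (x axis), orange for exposed and blue-grey for control mice: log2 Cy5 of the main Cxcl15 probe, Scgb1a1 and Scgb3a2, and the log2 ratio of Cxcl1 with marked spots included. The first 3 panels are higher on slides 2 and 4 in each group, and Cxcl1 spreads from -2.61 to -0.69 without that division.

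None of the lists of other ligands, receptors or inducers had a call in the liver. The median differences were -0.07 for the 2 ELR ligands, -0.06 for the 8 others, -0.06 for the 3 receptors and -0.02 for the 24 inducers, beside 0.00 over all probes. The 17 neutrophil markers all had lower means in exposed than control livers, with a median of -0.17 and 0 called, and their summed level (8 genes, log2) was 9.2 to 9.3 in exposed and 9.2 to 10.6 in control livers.

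Control lung and control liver differed in opposite directions for Cxcl1 and Cxcl15. As background, 57.9% of 41149 probes were called between these tissues (29.5% higher and 28.3% lower in lung), and the marker lists fell on the side of their labels: 14 of 14 tested epithelial markers were called higher in lung and 8 of 8 hepatocyte markers lower. Lung and liver arrays were also read with different versions of the scanner software and on different slides, which cannot be told apart from tissue.

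Cxcl15 was much higher in control lung. The main probe had 4.91 ± 0.17 (SD, n = 6) in lung and 0.37 ± 0.36 (SD, n = 8) in liver, a difference of 4.54 ± 0.14 (SE) (adjusted p = 2.67e-14 from limma; exact permutation p = 0.000333, the smallest possible). No fold is given for it, since its liver Cy3 was at background on every array and its liver Cy5 above background on only 4 of 8, and on the scanner software's processed signals the difference was 3.04. The junction-crossing probe had 6.55 ± 0.18 (SD, n = 6) and -0.06 ± 0.09 (SD, n = 8), a difference of 6.61 ± 0.07 (SE) (adjusted p = 4.34e-20 from limma). The difference was 7.60 with an offset of 10 in the background correction and 8.84 on processed signals. This probe was above background in Cy5 on 0 of 8 control livers and in Cy3 on 2 of 8. Its liver ratio therefore depends on how background is handled, and no fold between the ratios is given for it. Its Cy5 signal taken alone, with the livers at their detection floor or their own signal where higher, was 140-fold higher in lung, which does not take out the higher Cy3 signal on lung arrays and so is no lower bound for the ratio. On either probe 6 of 6 lungs lay above every liver, as for 22.1% of all probes. The reference RNA is the same on all arrays, yet the Cy3 signal of the main probe was also higher on lung arrays, at 215.5 to 432 units above background against 8 to 15 units on liver arrays, or 2.87 on the log2 scale. The Cy5 difference of that probe was 7.41, so its ratio gives a smaller difference than its sample channel. On the junction-crossing probe the Cy3 difference was 0.51.

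Cxcl1 was lower in control lung than in control liver. The log2 ratio was -4.04 ± 0.09 (SD, n = 4) in lung and -1.32 ± 0.62 (SD, n = 5) in liver, a difference of -2.72 ± 0.26 (SE) or 6.59-fold (adjusted p = 1.61e-06 from limma; exact permutation p = 0.00794, the smallest possible), or -4.64 on processed signals, with 4 of 4 lungs below every liver, as for 19.3% of all probes (41.4% had no overlap in either direction). With marked spots kept the difference was -2.46 (adjusted p = 1.33e-08 from limma). With an offset of 10 in the background correction it was -3.64, so the fold depends on how background is handled. The order of the groups for Cxcl1 was thus control lung, exposed lung and then the livers, whose groups do not differ beyond their spread, and the highest exposed lung, at -2.69, lay just below the lowest liver, at -2.61 with marked spots kept.

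For Cxcl5 no direction between the tissues is given. It was above background on 2 of 6 control lungs and 0 of 8 control livers, the Cy5 signal alone, with the livers at their detection floor, was 1.07-fold higher in lung, and the log2 ratio gave -0.37 ± 0.13 (SE) with the opposite sign (adjusted p = 0.0243 from limma), while the Cy3 signal of the probe was 0.46 higher on lung arrays. The exposed lungs were the only group above background on all its arrays.

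Among the neighbours in the gene cluster, Ppbp and Pf4 were higher in control lung by 3.25 and 2.59 (adjusted p = 1.2e-12 and 3.84e-12 from limma), and Cxcl3 differed by 0.10 (adjusted p = 0.0846 from limma). Of the 8 ligands without the ELR motif 4 were called higher and 4 lower in lung. Cxcl14, a constitutively expressed epithelial ligand, was higher by 2.36, and Cxcl9, an interferon-induced ligand of T cells, was lower by 2.79 (adjusted p = 1.05e-12 and 3.79e-12 from limma). Cxcr2 was higher in lung by 0.74 (adjusted p = 8.82e-05 from limma), above background on 6 of 6 lungs and 2 of 8 livers. Of the 24 inducers 11 were called higher and 2 lower in lung.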

How the data were processed

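For each 2-color array the authors deposited spot intensity values that were not normalized, read with Feature Extraction 9.5.3.1 (lung) and 10.1.1.1 (liver). The authors also deposited a table of processed log2 values (their methods name LOWESS), which correlated at 0.994 to 0.998 per array with uncorrected log2 ratios and served as an alternative. The 13 miRNA arrays were not used here.

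Median intensities were corrected with normexp (offset 50) and normalized within arrays by loess. Marked spots were left out of the background model, because with all spots its fitted Cy5 mean ran from -972 to -4.4 across arrays and without them from -8.4 to -4.1. Control and marked spots were then dropped (2.46% to 4.72% of spots per array were marked) and the spots of a probe averaged. Spots well above background made up 55.1% to 70.5% per array, and the number of arrays limits precision. Liver files carry no gene names, which were taken from the lung files through identical probe numbers.

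Groups were compared with limma 3.58.1 (lmFit, eBayes, R 4.3.3), fitted on all probes with Benjamini-Hochberg adjustment at 0.05; replicates are mice. The fits were also run on simulated data, made from ratios without background correction with independent noise and no slide effect. That run does not check the fits under the slide differences seen here. Exact permutation tests ran over all splits of the arrays. Folds against a group below background in Cy5 use the lowest Cy5 signal well above background on each array as floor, or the signal of the probe where higher, on channels scaled by Aquantile, and are open to dye bias. For the tissues, equal mouse numbers in the titles were taken to name the same animal. Same-mouse deviations correlated at a median of 0.0887 (-0.0358 to 0.125, 6 mice), against -0.02 between mice, which is too weak to establish this. Some numbers of exposed mice in the mRNA titles belong to controls in the miRNA titles, so the numbering of those sets may differ.

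Named were every probe of the 4 genes (main probe: highest mean Cy5), the ligands and receptors, called list genes and those with the largest differences, and the 3 closest genes for each of Cxcl1, Cxcl5 and Cxcl15. The mouse numbers in the hepatocyte split, the secretoglobins and the alternative without mice 1, 13 and 19 were chosen after values were seen. The NF-kB-type motif was set after these promoters had been read. Genes and lists were chosen with earlier results of these data known. Symbols absent from the array (Cxcl17, Ly6g, Krt79, Serpina1a, Hpx and Hbb-b2) were not analysed here. Alternatives covered background model, offset, normalization, spot filters, dim probes, slide blocks and each array left out.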

Additional observations from a re-analysis of the deposited data

How the results depend on the processing

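The number of lung probes called was 80, 12 with the background model on all spots, 4 with centring on the array median, 126 with slide as a random block, 39 without the exposed lungs of mice 1, 13 and 19, and 67 to 85 with 1 array left out. The lung difference of Cxcl1 (1.05) was 1.47 with the background model on all spots, 1.63 with offset 10, 2.36 on the software's processed signals and 0.83 in the authors' table, and 0.99 to 1.09 with 1 array left out. That of Cxcl5 (2.24) was 3.31 with offset 10 and 4.79 on processed signals, and 1.92 to 2.51 with 1 array left out. With the background model on all spots the Cxcl15 differences were -0.28 and -0.73. Leaving out 1 array gave -0.10 to 0.04 (main probe) and -0.11 to 0.01 for Cxcl15. Of the 4 genes' main probes 2 were called higher in lung with offset 10 and on processed signals, and 0 with the background model on all spots or with median centring. In the liver the difference of Cxcl15 (0.02) was -0.0063 without background correction, -0.0051 in the authors' table, -0.020 with slide as a fixed block and -0.052 to 0.12 with 1 array left out, and 0.34 on processed signals (SE of the main value 0.16). Cxcl1 there (-0.25) was -0.64 with the background model on all spots (adjusted p = 0.519 from limma, 0.519 to 1 over 10 alternatives) and -0.44 to -0.10 with 1 array left out. Liver calls were 0 in each of 25 alternatives. Between tissues the signs and calls of Cxcl1 and both Cxcl15 probes held under each alternative, but on processed signals the differences moved from -2.72, 4.54 and 6.61 to -4.64, 3.04 and 8.84. With the mouse as replicate block (6 pairs) the differences were -2.74, 4.71 and 6.61, and the block changed no call. With 1 array left out they were -2.90 to -2.56, 4.48 to 4.64 and 6.57 to 6.66, and 22909 to 23881 probes were called. The correlation of Cxcl1 with Cxcl15 in exposed lungs turned to -0.20, and that of Cxcl5 with Cxcl15 in control lungs to -0.24, without the 2 farthest arrays, and that of Cxcl2 with Cxcl15 in control lungs from -0.13 to 0.37 without background correction. The cause of these changes was not tested. Signal over background limits Cxcl2 everywhere, Cxcl5 outside exposed lungs and Cxcl15 in liver. It also limits the size of the Cxcl1 differences, since the Cy5 signal of control lungs was 14 to 46 units above local background.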

Other observations

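Cxcl1 varied widely between livers of each group, and the genes that ran with it there were looked up after its values were seen, as a description. Over the 10 livers with an unmarked Cxcl1 spot the closest were Mpeg1, Aoah and Ms4a6b (r = 0.959, 0.958 and 0.958), genes known from macrophages and other myeloid cells, out of 15170 probes. Over all 15 livers with marked spots kept they were 5830443L24Rik, Aoah and Junb (r = 0.869, 0.862 and 0.851), Junb being an immediate early transcription factor, and 0 of 18971 probes exceeded r = 0.9. None of these genes was called between exposed and control livers.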
